A study of Mus musculus with 96 samples.

Results

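Plasma from young mice was compared with PBS, a buffered saline, in the hippocampus and the cerebellum of 22-month-old mice. The comparison takes in 12 of the 96 libraries of the series, chosen by the labels for treatment, age, region and the first of 2 experiments. In each region 3 libraries came from mice injected with young plasma and 3 from mice injected with PBS. By the labels the same 6 animals gave both regions, so plasma mice 16, 19 and 22 and PBS mice 15, 18 and 21 each appear once per region. All were male C57BL/6J mice that had 7 daily injections, and the labels used here give no dose, route or donor pool. The other libraries of the series hold the cortex, mice of 18 months with the same injections, mice of 19 months with 24 daily injections, and naive (uninjected) mice of 18 and 2 months. For the young naive mice the sample labels say 2 months and the series text 3 months. No naive mice of 22 months were analysed here, so plasma and PBS could be set against each other but not against uninjected animals of the same age.

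Transfer of young blood or plasma into old rodents is used to ask whether soluble factors of the blood alter aged tissue, and the hippocampus is the brain region in which such effects have been studied most. The hippocampus forms and retrieves memories and keeps a niche of new neurons in the dentate gyrus, while the cerebellum, made up mostly of granule cells, coordinates movement. In ageing mouse brain, complement, interferon and microglial genes are known to be more active and genes of newly formed neurons and oligodendrocytes less so, and these groups were therefore examined beside all genes.

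Both regions carried their own markers. Gabra6, the granule cell subunit of GABA receptors in the cerebellum, was at 0 CPM (counts after each library was brought to a sum of 1e+06) in the 6 hippocampi and at 354 to 425 CPM in the 6 cerebella. Neurod6, a transcription factor of hippocampal and cortical pyramidal neurons, was at 130 to 241 CPM in the hippocampi and 3.42 to 5.03 CPM in the cerebella. Prox1, which marks granule cells of the dentate gyrus, was at 66.3 to 105 CPM in the hippocampi but also at 52.4 to 66.1 CPM in the cerebella. Total counts in the hippocampus were 20117466, 21440462 and 8946389 in plasma mice 16, 19 and 22, and 6464174, 7773238 and 10750901 in PBS mice 15, 18 and 21. In the cerebellum they were 877031, 9975717 and 15928508 in the plasma mice and 9749096, 13221576 and 3745075 in the PBS mice, so the cerebellum of plasma mouse 16 is among the shallowest libraries of a series that ran from 851288 to 23768385. A second number in the titles, whose meaning is not stated, is shared by the 3 plasma mice and PBS mouse 21 and is different for PBS mice 15 and 18.

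Some libraries stood apart in genes of neighbouring tissue, and the results that touch those genes are given below library by library. A list of 15 genes of mural cells and fibroblasts summed to 485, 550 and 527 CPM in the hippocampi of plasma mice 16, 19 and 22, and to 388, 683 and 3545 CPM in those of PBS mice 15, 18 and 21. PBS mouse 21 was thus far above the other 5 hippocampi. Most of that sum was Ptgds, a prostaglandin synthase made in the meninges and choroid plexus, at 3080 CPM in PBS mouse 21 and 229 to 480 CPM in the other 5. A list of 16 choroid plexus and ependyma genes summed to 168, 231 and 850 CPM in the plasma hippocampi and to 224, 227 and 214 CPM in the PBS hippocampi, with plasma mouse 22 alone standing out. In the cerebellum, erythroid genes summed to 62.7, 14.5 and 7.97 CPM in plasma mice 16, 19 and 22 and to 75.5, 78.7 and 15.2 CPM in PBS mice 15, 18 and 21. In bulk tissue, fewer cells of a type and less RNA per cell cannot be told apart.

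**Figure D1:**
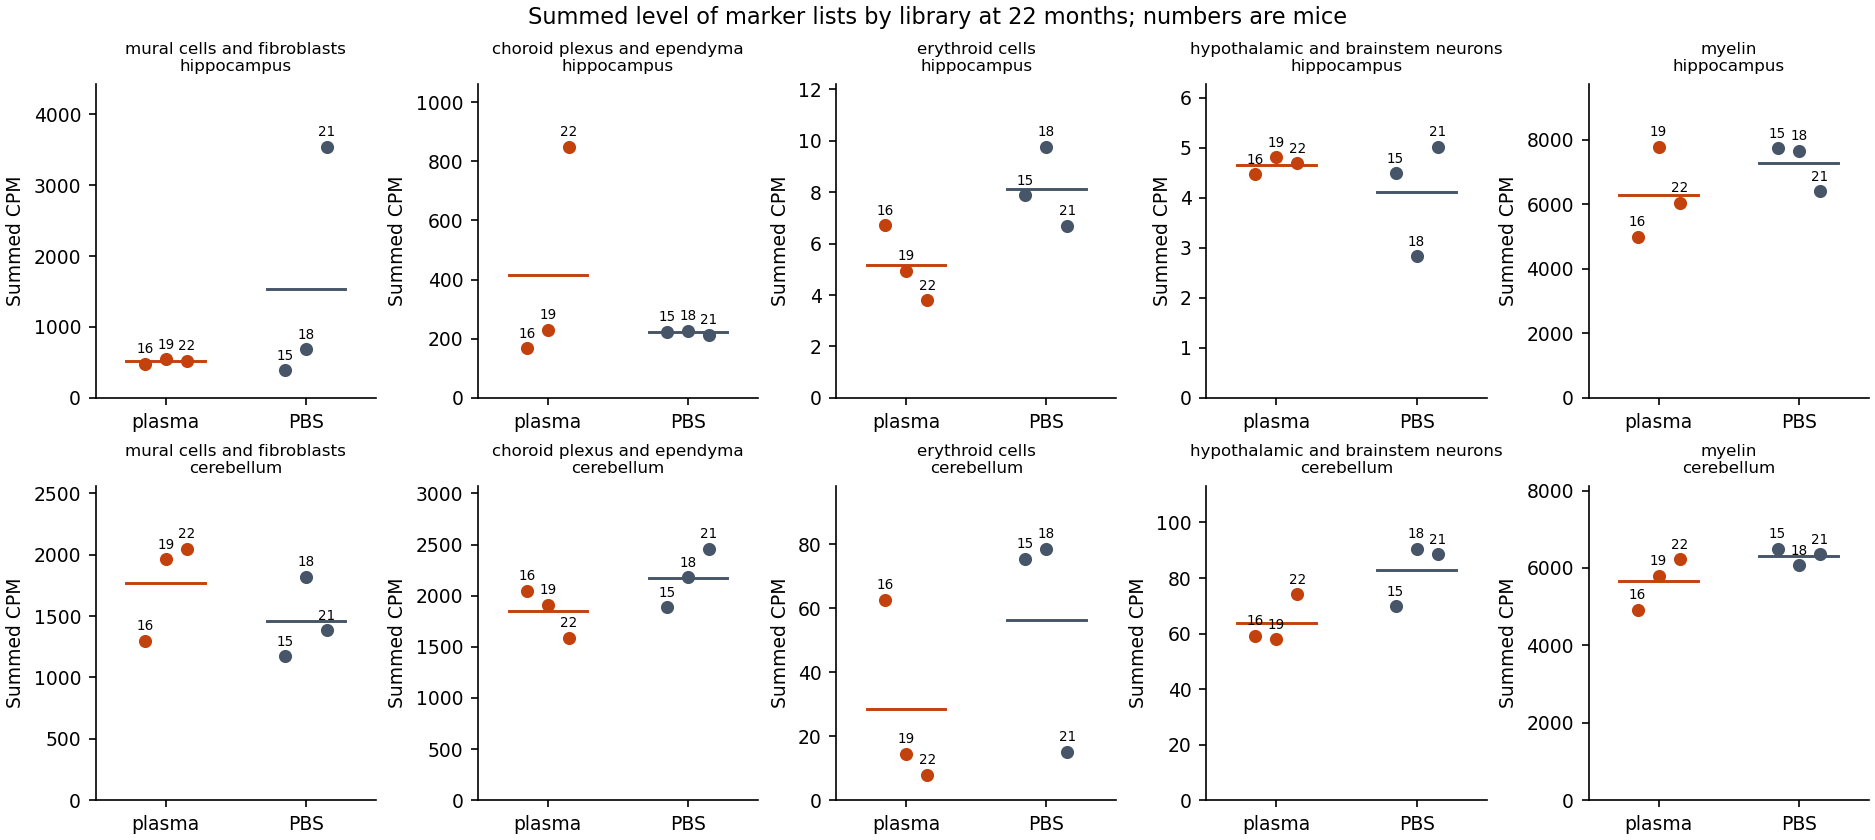
Summed level (CPM, linear axis from 0) of 5 marker lists in each library at 22 months, hippocampus above and cerebellum below. Points are single mice with their numbers, plasma left of PBS, and the line is the mean of 3. In the hippocampus, PBS mouse 21 stands out in mural cell and fibroblast genes and plasma mouse 22 in choroid plexus genes.

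In the hippocampus, no gene passed the test of plasma against PBS mice at 22 months. Of 18070 genes tested, 0 passed an adjusted p of 0.05 in edgeR's quasi-likelihood test (0% called), with a smallest adjusted p of 1.00. At an unadjusted p under 0.05 there were 304 genes, 160 with a positive log2 fold change (0.885%) and 144 with a negative one (0.797%). The CPM of the 3 plasma and 3 PBS libraries did not overlap in 905 genes with higher plasma values (5.01%) and in 542 with lower ones (3%). limma-voom called 0 genes as well (882 at an unadjusted p under 0.05), while DESeq2 called 1 (215 at an unadjusted p under 0.05). That gene was Slc16a8, a monocarboxylate transporter of pigment epithelium and choroid plexus, with 6, 0 and 9 counts in plasma mice 16, 19 and 22 and 0, 0 and 0 counts in PBS mice 15, 18 and 21. Its adjusted p was 5.76e-09 in DESeq2 and 1.00 in edgeR, and the groups met at 0.

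For genes of moderate level the intervals bounded the size of a possible change. Of the 4663 genes with a mean of at least 50 CPM, 95.3% had a 95% interval of the plasma effect wholly within a 1.5-fold change in either direction. Of the 8027 genes with 5 to 50 CPM, 96.0% had an interval within 2-fold, and of the 5380 genes under 5 CPM, 43.5%. The median size of the log2 fold change over all genes was 0.0977, against a median standard error of 0.176.

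**Figure D2:**
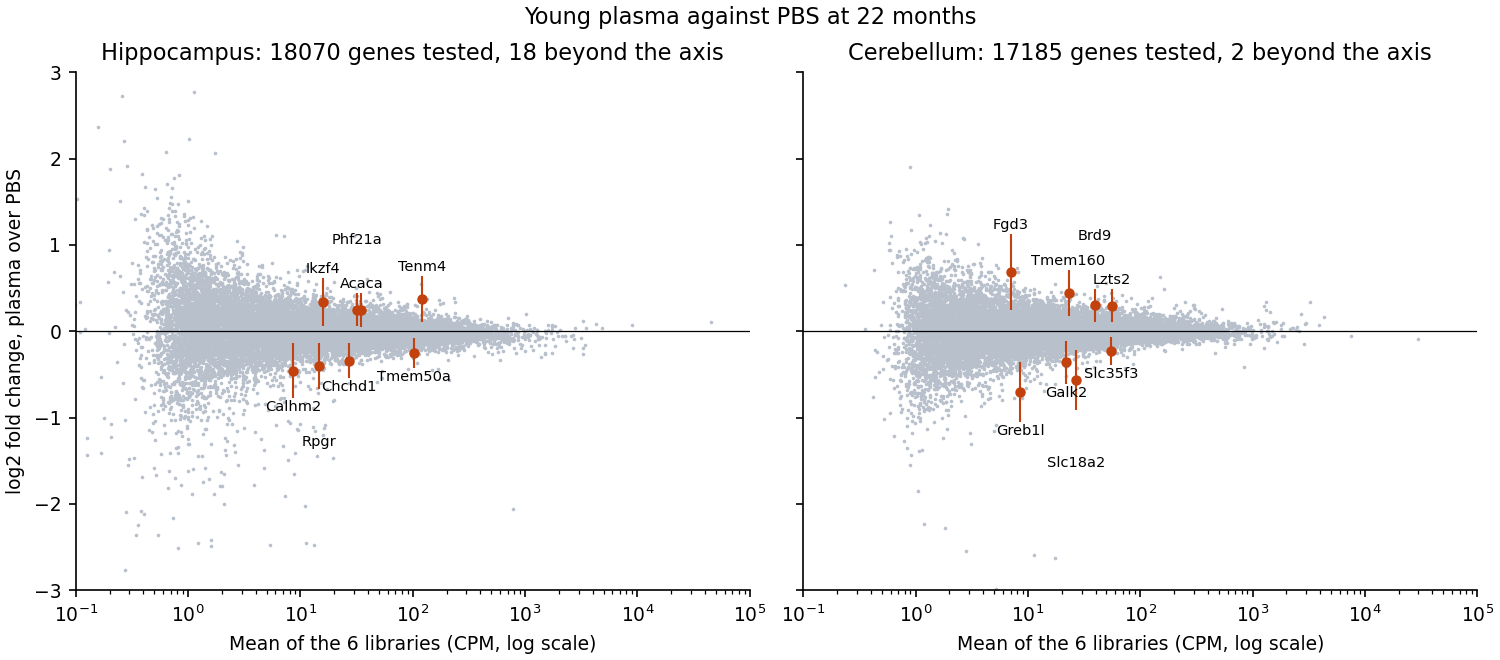
Log2 fold change, plasma over PBS, at 22 months against the mean of the 6 libraries (CPM, log scale) in the hippocampus (left) and cerebellum (right), each grey point 1 gene. Red points are the named genes with their 95% intervals. No gene passed an adjusted p of 0.05 in either region, and the scatter narrows as the level rises.

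The genes of the hippocampus with the smallest p among those with no overlap and at least 5 CPM, 4 in each direction, are given as values that did not pass (adjusted p of 1.00 in edgeR for each). Tenm4, a teneurin of the cell surface with roles in axon guidance and myelination (chromosome 7, 96171246 to 96911093 on GRCm38), was at 149, 124 and 138 CPM in plasma mice 16, 19 and 22 and at 88.3, 104 and 121 CPM in PBS mice 15, 18 and 21. Its highest PBS library lay just under its lowest plasma library, and the log2 fold change was 0.37 ± 0.13 (SE). Phf21a, a reader of unmethylated histone H3 in a demethylase complex, was at 39.3, 31.4 and 33.0 CPM in the plasma mice against 27.7, 27.9 and 30.5 CPM in the PBS mice. Acaca, the carboxylase that commits acetyl-CoA to fatty acid synthesis, averaged 38.0 ± 2.09 CPM in plasma mice and 31.7 ± 2.43 CPM in PBS mice (SD, n = 3 each). Ikzf4, a zinc finger transcription factor of the Ikaros family, averaged 18.0 ± 1.23 CPM in plasma mice and 14.0 ± 1.94 CPM in PBS mice. These 4 differences came to a log2 fold change of 0.25 to 0.37.

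With negative values, Rpgr, a regulator of transport in the cilium (chromosome X, 10073621 to 10216920), was at 11.7, 12.9 and 13.5 CPM in the plasma hippocampi and at 16.4, 16.3 and 16.7 CPM in the PBS hippocampi. The PBS libraries lay close together, and the log2 fold change was -0.40 ± 0.13. Chchd1, a protein of the small mitochondrial ribosomal subunit, was at 24.3, 26.0 and 21.2 CPM in plasma mice against 30.2, 28.8 and 30.8 CPM in PBS mice. Calhm2, of a family of calcium homeostasis channels, averaged 7.25 ± 0.338 CPM in plasma mice and 9.86 ± 0.827 CPM in PBS mice (SD, n = 3 each), a log2 fold change of -0.46 ± 0.15. Tmem50a averaged 94.7 ± 7.04 CPM in plasma mice and 111 ± 3.61 CPM in PBS mice, a log2 fold change of -0.25 ± 0.08.

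**Figure D3:**
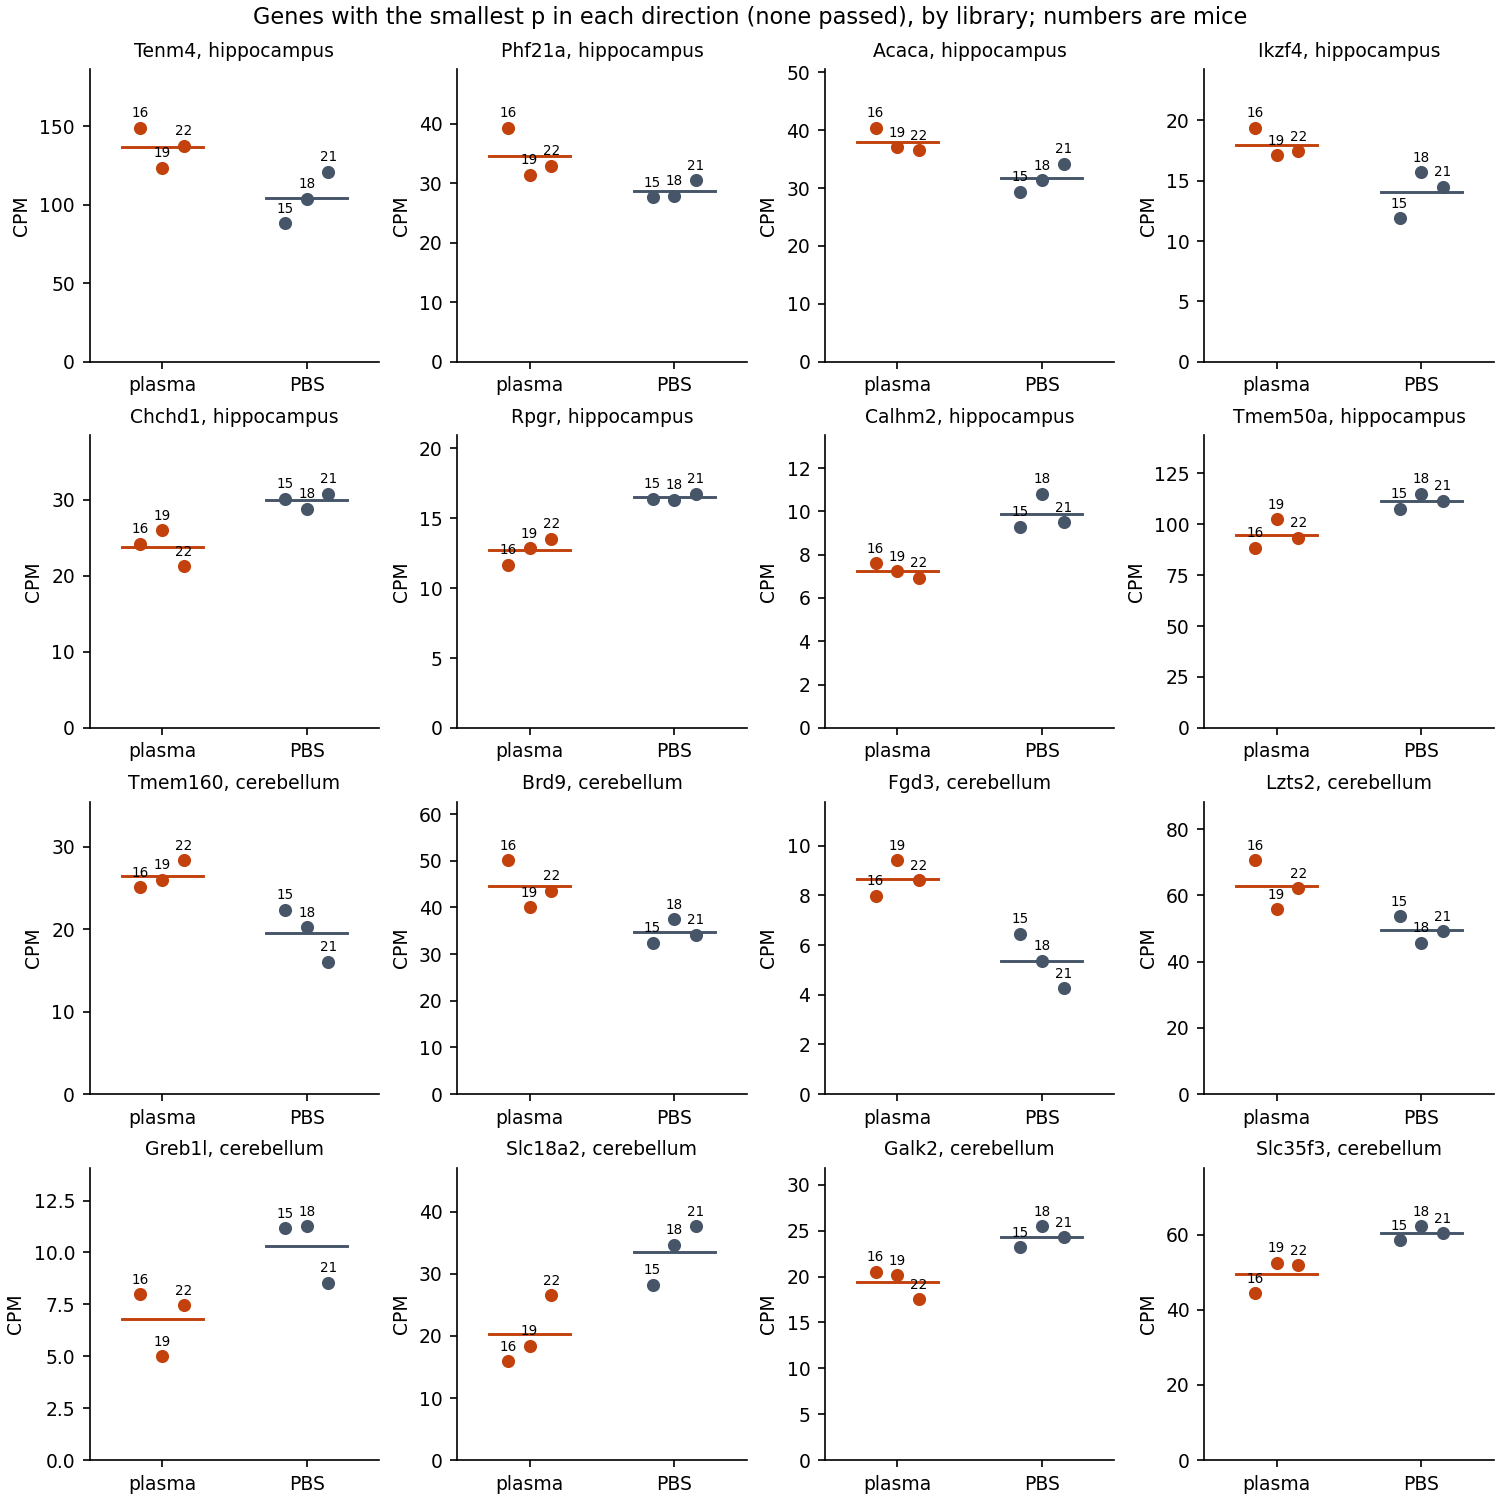
CPM by library (linear axes from 0) of the named genes that did not pass, hippocampus in the upper 2 rows and cerebellum in the lower 2. Points are single mice with their numbers, plasma left of PBS, and the line is the mean of 3. The groups do not overlap in these genes by the rule that chose them, and the gap between groups is often no wider than the spread inside one.

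Gene groups of the hippocampus were counted against the same background. No member of any list passed, and 28 of the 37 lists with at least 3 tested members had a median log2 fold change within 0.1 of 0, against a median of -0.004 over all genes. Complement genes, which tag synapses and debris for removal, had 5 of 12 positive values and a median of -0.01. C4b was at 115, 162 and 153 CPM in plasma mice 16, 19 and 22 and at 147, 128 and 139 CPM in PBS mice 15, 18 and 21, so the groups overlapped. Activated microglia genes had 5 of 17 positive values (median -0.04), homeostatic microglia genes 7 of 13 (median 0.00), and antigen presentation genes 2 of 17 (median -0.09). The interferon response had 7 of 27 positive values and a median of -0.16, with sums of 177, 223 and 273 CPM in the plasma mice against 196, 206 and 290 CPM in the PBS mice, which overlapped fully. Genes of immature neurons and neurogenesis had 9 of 12 positive values and a median of 0.11, and summed to 742, 722 and 735 CPM in plasma mice against 640, 683 and 799 CPM in PBS mice. PBS mouse 21 was above all plasma mice there, and mice 15 and 18 below them. Without PBS mouse 21 the medians of the antigen presentation and interferon lists were 0.13 and 0.00, and that of the neurogenesis list was 0.24. Without PBS mouse 15 the neurogenesis median was -0.03, and without plasma mouse 16 the interferon median was -0.01.

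Myelin genes of the hippocampus all had a negative log2 fold change, 14 of 14 with a median of -0.26, and 0 passed. Their sum was 5001, 7791 and 6044 CPM in plasma mice 16, 19 and 22 and 7731, 7664 and 6402 CPM in PBS mice 15, 18 and 21. The highest value belonged to a plasma mouse, plasma mouse 16 was lowest, and the groups overlapped. Mbp, the basic protein of myelin, repeated that order with 2412, 3929 and 2845 CPM in the plasma mice and 3712, 3680 and 2979 CPM in the PBS mice. Myelin genes share a cell type, so their signs are not independent of each other. The median was -0.12 without plasma mouse 16, -0.17 without PBS mouse 15 and -0.40 without plasma mouse 19. With PBS mice 15 and 18 both left out, so that PBS mouse 21 stood alone, it was 0.02.

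Ribosomal protein genes of the hippocampus had 5 of 77 positive values and a median of -0.09, and nuclear genes of the respiratory chain 7 of 73 and a median of -0.07. Of these, 7 ribosomal and 6 respiratory chain genes had plasma values wholly below PBS values, 9.09% and 8.22% of the lists against 3% of all genes. The summed ribosomal level was 11951, 11682 and 10874 CPM in plasma mice and 11513, 12346 and 12230 CPM in PBS mice, which overlapped. The summed respiratory chain level was 12247, 12264 and 11628 CPM in plasma mice 16, 19 and 22 and 12290, 12424 and 12440 CPM in PBS mice 15, 18 and 21. Those groups did not overlap, although plasma mice 16 and 19 lay just under PBS mouse 15. Clustered protocadherins, cell surface proteins that give neurons a combinatorial identity, had 36 of 52 positive values with a median of 0.07. In 16 of them (30.8%) all plasma values were above all PBS values, against 5.01% of all genes, but members of the alpha and gamma clusters share their 3' exons, so their counts are not independent measurements. Their sum was 8196, 8013 and 7736 CPM in plasma mice and 7714, 7486 and 7533 CPM in PBS mice, which did not overlap, with plasma mouse 22 just above PBS mouse 15. Among the other hippocampal lists of at least 3 tested members, only astrocyte genes had sums without overlap, at 4994, 4880 and 4864 CPM in plasma mice and 4357, 4802 and 4676 CPM in PBS mice. By gene, however, only 6 of 14 astrocyte genes had positive values, with a median of -0.01, and 0 had groups without overlap. The protocadherin median was 0.04 without PBS mouse 21, and the ribosomal and respiratory chain medians were -0.05 and -0.04 without plasma mouse 22.

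Mural cell and choroid plexus lists had wide values in the hippocampus that mostly followed a single library. Mural cell and fibroblast genes had a median of -0.77, with 4 of 15 positive. Fmod, fibromodulin of the collagen matrix, was at 4.82, 3.54 and 3.80 CPM in plasma mice and at 2.48, 6.30 and 57.7 CPM in PBS mice. Col1a1, a fibrillar collagen, was at 3.33, 3.31 and 5.92 CPM in plasma mice and 4.80, 2.19 and 22.2 CPM in PBS mice. In both, PBS mouse 21 was the high library and the other 5 were close together. Dcn, another fibroblast marker, differed from them, at 51.7, 24.3 and 36.3 CPM in plasma mice and 4.64, 15.4 and 56.2 CPM in PBS mice. Its lowest libraries were PBS mice 15 and 18, and plasma mouse 16 was near PBS mouse 21. The choroid plexus list had 16 of 16 positive values and a median of 0.55. Ttr, transthyretin and the main choroid plexus transcript, was at 12.4, 6.67 and 403 CPM in plasma mice 16, 19 and 22 and at 1.70, 11.3 and 1.67 CPM in PBS mice 15, 18 and 21. Folr1, a folate receptor of the same epithelium, was at 0.149, 0.840 and 3.47 CPM in plasma mice and 0.309, 1.03 and 0.186 CPM in PBS mice. Without PBS mouse 21 the mural cell and fibroblast median was 0.10, and without plasma mouse 22 the choroid plexus median was 0.21. With both left out, a choice made after these lists had been seen, the medians were -0.01 and 0.14, and 0 genes passed in edgeR (305 at an unadjusted p under 0.05). Erythroid genes had 1 of 5 positive values and a median of -0.98, from sums of 6.71, 4.94 and 3.80 CPM in plasma mice and 7.89, 9.78 and 6.70 CPM in PBS mice that met closely between plasma mouse 16 and PBS mouse 21. Without PBS mouse 18 that median was -0.63. Calb2, calretinin of interneurons and mossy cells and chosen after its values were seen, was at 46.8, 40.7 and 37.0 CPM in plasma mice and at 4.95, 9.13 and 41.5 CPM in PBS mice 15, 18 and 21. The 2 low libraries are the 2 with the other title number, whose part was not tested.

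In the cerebellum, again no gene passed. Of 17185 genes tested, 0 passed in edgeR (0% called), with a smallest adjusted p of 1.00. At an unadjusted p under 0.05 there were 392 genes, 253 with a positive log2 fold change (1.47%) and 139 with a negative one (0.809%). Plasma and PBS libraries did not overlap in 664 genes with higher plasma values (3.86%) and in 725 with lower ones (4.22%). DESeq2 and limma-voom each called 0 genes, with 156 and 617 at an unadjusted p under 0.05. With the spread estimated from the 22-month groups alone, edgeR called 3 genes, Dbh, Slc6a2 and Rps29, which are described below. The effect was bounded more tightly than in the hippocampus: the 95% interval lay within 1.5-fold for 99.2% of the 5036 genes at 50 CPM or more and within 2-fold for 98.4% of the 8014 genes at 5 to 50 CPM. Among the 4135 genes under 5 CPM it lay within 2-fold for 60.2%. The median size of the log2 fold change was 0.0823, against a median standard error of 0.134.

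The named cerebellar genes also did not pass (adjusted p of 1.00 in edgeR for each). Tmem160 was at 25.1, 26.0 and 28.4 CPM in plasma mice 16, 19 and 22 and at 22.4, 20.2 and 16.0 CPM in PBS mice 15, 18 and 21, a log2 fold change of 0.44 ± 0.13 (SE). Brd9, a bromodomain subunit of a SWI/SNF chromatin remodeller, was at 50.2, 40.1 and 43.6 CPM in plasma mice and 32.4, 37.5 and 34.2 CPM in PBS mice. Plasma mouse 16, the highest of them, is the library of 877031 counts. Fgd3, an exchange factor for the GTPase Cdc42, averaged 8.67 ± 0.723 CPM in plasma mice and 5.37 ± 1.09 CPM in PBS mice (SD, n = 3 each), with a log2 fold change of 0.69 ± 0.21. Lzts2, a leucine zipper protein that restrains beta-catenin in human cells, averaged 62.9 ± 7.46 CPM in plasma mice and 49.5 ± 3.96 CPM in PBS mice.

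On the negative side, Greb1l, needed for kidney development and lying on chromosome 18 from 10325177 to 10562940, was at 7.98, 5.01 and 7.47 CPM in plasma mice and at 11.2, 11.3 and 8.54 CPM in PBS mice, a log2 fold change of -0.70 ± 0.17. Galk2, a kinase of N-acetylgalactosamine, averaged 19.4 ± 1.64 CPM in plasma mice and 24.3 ± 1.15 CPM in PBS mice (SD, n = 3 each). Slc35f3, a solute carrier, averaged 49.6 ± 4.49 CPM in plasma mice and 60.4 ± 1.84 CPM in PBS mice. Slc18a2, the vesicular transporter of monoamines on chromosome 19 from 59260896 to 59296012, was at 16.0, 18.4 and 26.5 CPM in plasma mice and at 28.2, 34.6 and 37.6 CPM in PBS mice, a log2 fold change of -0.57 ± 0.17.

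Among other genes of noradrenergic neurons, picked after their values were seen, Dbh, Slc6a2 and Gal also had all plasma values below all PBS values. Dbh, which makes noradrenaline from dopamine (chromosome 2, 27165233 to 27183200), was at 0, 0 and 0.691 CPM in the cerebella of plasma mice 16, 19 and 22, from 0, 0 and 11 counts. It was at 7.49, 7.41 and 8.54 CPM in PBS mice 15, 18 and 21, from 73, 98 and 32 counts. Slc6a2, the noradrenaline transporter, was at 0, 0.10 and 0.879 CPM in plasma mice and 5.23, 7.41 and 8.54 CPM in PBS mice. Gal, the neuropeptide galanin, was at 0, 0.501 and 0.502 CPM in plasma mice against 2.05, 1.66 and 1.60 CPM in PBS mice. The groups did not overlap in any of these 3, and each had an adjusted p of 1.00 in edgeR. When only the groups compared were fitted, Dbh and Slc6a2 passed, with an adjusted p of 0.000696 and 0.00176 in edgeR. In the other 23 cerebella of the first experiment Dbh ran from 0 to 8.62 CPM with a median of 0.581 CPM, and 10 of them were above 1 CPM, so both levels also occurred outside these 2 groups. Th, which acts upstream of Dbh, did not share the pattern, with 37.6, 37.6 and 31.5 CPM in plasma mice against 34.0, 38.3 and 43.0 CPM in PBS mice. In the other 23 cerebella Th ran from 11.7 to 50.4 CPM, above 1 CPM in 23 of them. Th was thus present where Dbh was near 0, so its values cannot test the pattern of Dbh, Slc6a2 and Gal. Serotonin neuron genes did not share the pattern either, since Tph2 was at 0, 0.301 and 12.7 CPM in plasma mice and 0.923, 13.7 and 7.74 CPM in PBS mice. Genes of hypothalamic and brainstem neurons as a list summed to 59.3, 58.0 and 74.2 CPM in plasma mice and 69.9, 90.5 and 88.6 CPM in PBS mice. Their median log2 fold change was -0.27 over 7 tested members, but -6.21 without plasma mouse 22 and 0.23 without plasma mouse 19. How much brainstem each dissection held was not tested.

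Among the cerebellar lists no member passed, and 26 of 37 had a median within 0.1 of 0, against 0.009 over all genes. Complement had 6 of 10 positive values (median 0.11), the interferon response 21 of 28 (median 0.09), antigen presentation 13 of 17 (median 0.20), activated microglia 11 of 19 (median 0.02) and homeostatic microglia 6 of 13 (median -0.02). Without plasma mouse 22 the antigen presentation median was 0.07, without plasma mouse 19 the interferon median was -0.11, and without PBS mouse 15 the complement median was -0.05. The summed antigen presentation level was 633, 658 and 689 CPM in plasma mice and 660, 640 and 669 CPM in PBS mice, which overlapped. Sums without overlap were found for 2 lists. Cell cycle inhibitors and p53 targets summed to 510, 502 and 496 CPM in plasma mice and 471, 459 and 476 CPM in PBS mice. The median of that list was 0.14, but 0.07 without PBS mouse 18 and 0.01 with PBS mice 15 and 18 left out. Endothelium and barrier genes summed to 1444, 1425 and 1462 CPM in plasma mice and 1398, 1351 and 1418 CPM in PBS mice. Immediate early genes, which neurons switch on within minutes of activity, had 14 of 17 positive values and a median of 0.27. Their sum was 335, 418 and 494 CPM in plasma mice 16, 19 and 22 and 340, 419 and 444 CPM in PBS mice 15, 18 and 21, so the level varied as much within a group as between groups. The median was 0.09 without plasma mouse 22, 0.11 without PBS mouse 15 and 0.44 without PBS mouse 21. Fos itself was at 4.56, 17.1 and 32.3 CPM in plasma mice and 7.80, 20.7 and 22.7 CPM in PBS mice. Myelin genes had 2 of 14 positive values and a median of -0.06, and cholesterol synthesis genes 7 of 19 and a median of -0.04. Without plasma mouse 22 these medians were -0.20 and -0.15.

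Ribosomal protein genes of the cerebellum had 74 of 77 positive values, with a median of 0.11. In 15 of them (19.5%) all plasma values exceeded all PBS values, against 3.86% of all genes. Rps29, of the small subunit, was at 197, 158 and 188 CPM in plasma mice and at 114, 116 and 118 CPM in PBS mice, a log2 fold change of 0.62 ± 0.28 with an adjusted p of 1.00 in edgeR. It passed when only the groups compared were fitted (adjusted p of 0.00396 in edgeR). In the other 23 cerebella of the first experiment Rps29 ran from 40.9 to 198 CPM with a median of 139 CPM, a range that holds the values of both groups. Nuclear genes of the respiratory chain had 60 of 73 positive values and a median of 0.10, and 12 (16.4%) had no overlap with plasma above PBS. Cox6c, a subunit of cytochrome c oxidase, was at 246, 221 and 229 CPM in plasma mice against 205, 192 and 158 CPM in PBS mice. The sums of both lists overlapped, with ribosomal levels of 10159, 9765 and 10565 CPM in plasma mice and 10189, 8938 and 9077 CPM in PBS mice. The ribosomal median was 0.07 without PBS mouse 18 and 0.20 without PBS mouse 15, and the respiratory chain median was 0.05 and 0.20 without the same mice. Erythroid genes had a median of -2.57 over 6 members, with the order of libraries given above: Hba-a1, an alpha globin, was at 26.2, 4.41 and 1.76 CPM in plasma mice and at 31.8, 33.5 and 6.14 CPM in PBS mice. With PBS mice 15 and 18 left out the erythroid median was -0.06. Choroid plexus and ependyma genes had 2 of 16 positive values and a median of -0.24, with sums of 2049, 1914 and 1590 CPM in plasma mice and 1889, 2180 and 2459 CPM in PBS mice. Without PBS mouse 18 that median was -0.15.

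**Figure D4:**
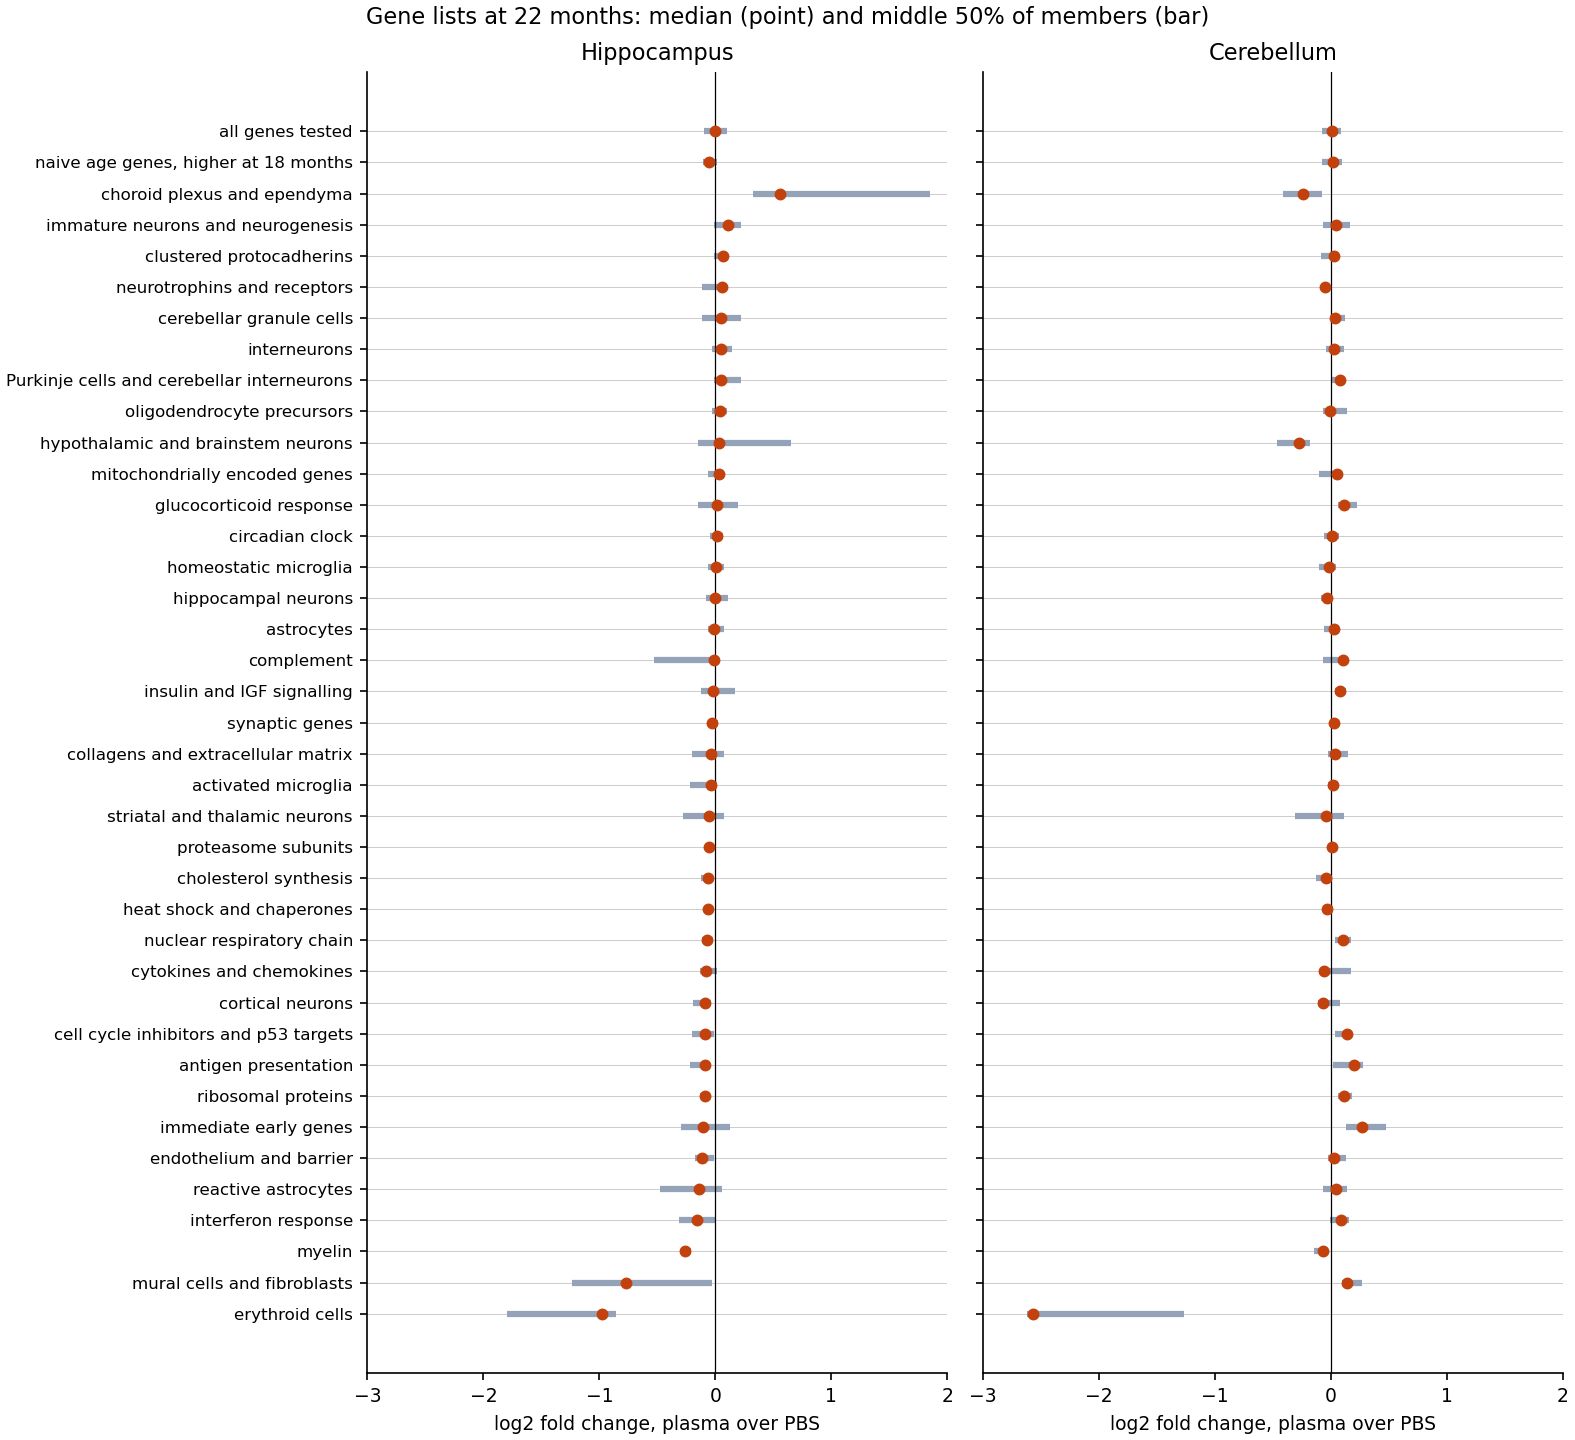
Median log2 fold change, plasma over PBS, of each gene list (point) and the middle 50% of its members (bar) in the hippocampus (left) and cerebellum (right), ordered by the hippocampal median. Most medians lie within 0.1 of 0, like that of all genes in the top row. Choroid plexus, mural cell and erythroid lists lie farthest from 0 in the hippocampus and the erythroid list in the cerebellum.

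The plasma effects of the regions were then compared in 1 fit over 87 libraries, hippocampus minus cerebellum. Of 19490 genes, 0 passed (0% called), and the smallest adjusted p in edgeR was 0.619. At an unadjusted p under 0.05 there were 583 genes, 287 with a positive difference (1.47%) and 296 with a negative one (1.52%). limma-voom called 0 genes (931 at an unadjusted p under 0.05), and DESeq2 called 1 (444 at an unadjusted p under 0.05), again Slc16a8 with an adjusted p of 4.77e-09 in DESeq2. Its cerebellar counts were 0, 26 and 27 in the plasma mice and 25, 24 and 14 in the PBS mice. With the mouse as a replicate block, which pairs the regions of 1 animal, edgeR also called 0 (509 at an unadjusted p under 0.05). The median standard error of a difference was 0.254 on the log2 scale, wider than that of either region alone.

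Greb1l had the smallest p among genes with a positive difference. It was at 16.3, 12.9 and 13.0 CPM in the hippocampi of plasma mice against 11.3, 10.2 and 13.1 CPM in PBS mice. The hippocampal groups overlapped, since PBS mouse 21 lay above plasma mice 19 and 22, whereas all cerebellar plasma values lay below all PBS values. The difference was 0.98 ± 0.26 (SE, adjusted p of 0.619 in edgeR). Cept1, of phospholipid synthesis, Ubr3, a ubiquitin ligase, and Tmed3, a cargo receptor between the endoplasmic reticulum and the Golgi apparatus, had differences of 0.39 ± 0.13, 0.29 ± 0.10 and 0.47 ± 0.16. On the negative side, Rpgr had a difference of -0.62 ± 0.17, since its cerebellar values were 21.7, 21.1 and 17.8 CPM in plasma mice and 16.4, 16.4 and 17.9 CPM in PBS mice. The differences of Cdh1, E-cadherin, Zic1, a transcription factor of cerebellum and meninges, and Fmod were -5.04 ± 1.29, -1.58 ± 0.46 and -2.87 ± 0.85, and each turned on the hippocampus of PBS mouse 21. Cdh1 there was at 8.65 CPM, against 0, 0.280 and 0 CPM in the plasma mice and 0 and 0.515 CPM in the other PBS mice.

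Across genes the estimated effects of the regions were not positively correlated. Their median sizes, 0.0977 in the hippocampus and 0.0823 in the cerebellum, were below the median standard errors of 0.176 and 0.134. A low correlation of such estimates therefore cannot tell whether the regions share an effect. Over 16574 genes tested in both, the log2 fold changes had a Pearson correlation of -0.0889 and a Spearman correlation of -0.0678, and 48.1% had the same sign. The points share mice and normalization within a region and are not independent, so no p is given. At an unadjusted p under 0.05 in both regions, 3 genes had the same direction and 12 the opposite. Of 11995 genes with at least 5 CPM in both regions, 2 had the same direction, Mertk and Cars2, and 5 the opposite. Among those 5, Slc6a20a and Fmod turned on the hippocampus of PBS mouse 21, at 62.4 and 57.7 CPM. Mertk, a receptor by which glia engulf dying cells and synapses, was at 43.2, 40.3 and 40.5 CPM in plasma mice and 31.7, 34.3 and 36.8 CPM in PBS mice in the hippocampus. In the cerebellum it was at 17.1, 30.0 and 21.4 CPM in plasma mice against 18.9, 19.7 and 17.1 CPM in PBS mice, which overlapped. Cars2, the mitochondrial cysteinyl-tRNA synthetase, was at 15.9, 15.6 and 16.1 CPM in plasma mice and 12.7, 11.8 and 13.0 CPM in PBS mice in the hippocampus. In the cerebellum it was at 19.4, 16.1 and 16.8 CPM in plasma mice against 12.6, 12.3 and 15.2 CPM in PBS mice, so that plasma values exceeded PBS values in both regions. Nbl1, an antagonist of BMP ligands, had values in opposite directions in the regions, without overlap, at 86.2, 78.1 and 70.5 CPM in plasma mice and 112, 91.6 and 110 CPM in PBS mice in the hippocampus. Its cerebellar values were 103, 104 and 92.7 CPM in plasma mice and 80.8, 85.8 and 88.4 CPM in PBS mice. None of the 3 passed, with an adjusted p of 1.00 in edgeR in each region, and they were singled out after their values were seen. Among the lists, ribosomal proteins had a median difference of -0.18 and nuclear respiratory chain genes one of -0.17, against 0.01 over all genes. Of their members, 0 of 77 and 0 of 73 passed. Other lists differed more, among them erythroid cells (0.97), mural cells and fibroblasts (-0.86), choroid plexus and ependyma (0.84) and reactive astrocytes (-0.40). The interferon response had -0.30 and antigen presentation -0.25, and no member of these lists passed. As given above by region, the erythroid, mural cell and choroid plexus medians depended on which mice were included. Reactive astrocyte genes had medians of -0.14 in the hippocampus and 0.05 in the cerebellum. Both were smaller than the within-group spread of the list's median (SD of 0.32 and 0.09).

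Genes that changed with age in naive mice were followed as a group, since they share no library with the plasma comparison. In the hippocampus 13 genes passed for naive mice of 18 against 2 months (0.0719%) and in the cerebellum 411 (2.39%). The 12 hippocampal genes higher at 18 months had a median plasma effect of -0.06, with 4 positive, but one of 0.04 without plasma mouse 16, and Gpr17, the 1 that was lower, had 0.15. The 228 cerebellar genes higher with age had a median of 0.02 with 132 positive (57.9%), and the 183 lower ones a median of 0.00 with 92 positive (50.3%), against 52.8% of all genes. The median age change of those 228 genes was 0.78, so the median plasma effect was small beside it.

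Of single genes known for ageing or stress, those followed gave intervals that include no change or barely leave it out. C4b, which had an age change of 2.30 in the hippocampus and 2.13 in the cerebellum, had a plasma effect of 0.04 with a 95% interval of -0.43 to 0.51 in the hippocampus and of -0.07 with an interval of -0.32 to 0.17 in the cerebellum. C4b lies on chromosome 17 from 34728380 to 34743882 beside its near copy C4a, and the split of counts between them is uncertain. C4a, not among the followed genes, was at 1.54, 1.12 and 1.23 CPM in the plasma hippocampi, from 31, 24 and 11 counts. In the PBS hippocampi it was at 0.309, 0.386 and 0.372 CPM, from 2, 3 and 4 counts. Its log2 fold change there was 1.81 with a 95% interval of 0.77 to 2.85, and it did not pass after adjustment. The other 23 hippocampi of the first experiment ran from 0.538 to 2.80 CPM for C4a. The plasma values lay inside that range and the PBS values below it. Gfap, the filament of astrocytes, averaged 650 ± 24.6 CPM in plasma mice and 662 ± 60.6 CPM in PBS mice in the hippocampus (SD, n = 3 each). In the cerebellum it averaged 355 ± 32.8 CPM in plasma mice and 382 ± 20.4 CPM in PBS mice. Neat1, a nuclear long noncoding RNA that was higher in the older naive mice in both regions, had plasma effects of -0.21 and -0.05 in hippocampus and cerebellum. Fkbp5 and Sgk1, induced by glucocorticoids, had effects of 0.02 and -0.19 in the hippocampus and of -0.12 and 0.04 in the cerebellum. Gpr17, a receptor of committed oligodendrocyte precursors, was at 19.0, 20.8 and 19.9 CPM in plasma mice and 18.3, 17.1 and 17.8 CPM in PBS mice in the hippocampus, which did not overlap. In the cerebellum it was at 5.70, 4.71 and 7.47 CPM in plasma mice against 6.05, 7.11 and 6.14 CPM in PBS mice. Dbp, a clock output gene, and Cdkn1a, the cell cycle inhibitor p21, had cerebellar intervals of 0.06 to 0.49 and 0.01 to 0.75, and neither passed after adjustment (adjusted p of 1.00 in edgeR). In the hippocampus their intervals, -0.26 to 0.44 and -1.25 to 0.74, included 0. The remaining followed genes, Serpina3n, Fos, Ttr and Hspa1a, had intervals that included 0 in both regions, that of Ttr in the hippocampus reaching from -0.11 to 9.76.

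**Figure D5:**
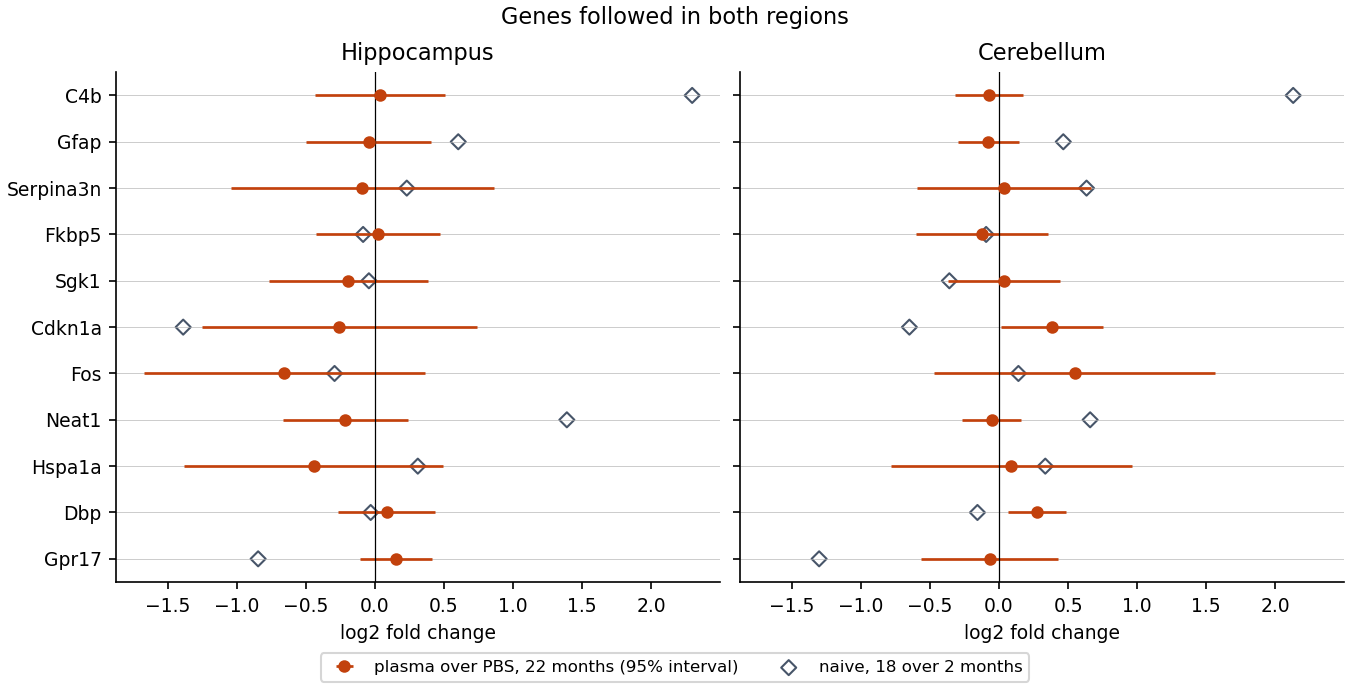
Log2 fold change of 11 followed genes in the hippocampus (left) and cerebellum (right), plasma over PBS at 22 months as points with 95% intervals and naive 18 over 2 months as open diamonds. The age changes of C4b lie beyond 2 while its plasma effects lie within 0.1 of 0, and Ttr is left out for its interval.

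The plasma effect at 22 months was set against that at 18 months, where 5 plasma and 4 PBS mice of other title numbers had the same 7 injections. The difference of the 2 effects, 22 minus 18 months, passed for 0 of 18070 genes in the hippocampus (0% called, 505 at an unadjusted p under 0.05) and for 0 of 17185 in the cerebellum (0% called, 625 at an unadjusted p under 0.05). At 18 months itself 0 genes passed in either region, with 440 and 696 at an unadjusted p under 0.05 in hippocampus and cerebellum. DESeq2 called 1 difference between the ages in the hippocampus, Slc16a8 (adjusted p of 0.0022 in DESeq2), and 0 in the cerebellum, and limma-voom called 0 in both. In the cerebellum, edgeR without a filter on low counts called Dbh and Slc6a2 (adjusted p of 0.00809 for each). With the filter, Dbh had an effect of -4.20 ± 1.27 (SE) at 22 months and 4.08 ± 1.403 at 18 months, and Slc6a2 had -3.61 ± 1.15 at 22 months and 3.83 ± 1.29 at 18 months. None of these effects passed at either age (adjusted p of 1.00 in edgeR). Without plasma mouse 22, edgeR called 1 difference between the ages in the cerebellum, the gene model Gm973 (adjusted p of 0.0259 in edgeR). Gm973 was at 1.14, 2.21 and 6.34 CPM in plasma mice 16, 19 and 22, from 1, 22 and 101 counts. In PBS mice 15, 18 and 21 it was at 5.85, 6.28 and 7.21 CPM, from 57, 83 and 27 counts. Chchd1 in the hippocampus had an effect of -0.34 at 22 months and 0.15 at 18 months, a difference of -0.49 ± 0.13 (SE). Slc18a2 in the cerebellum had -0.57 at 22 months and 0.28 at 18 months, a difference of -0.85 ± 0.23, and neither difference passed (adjusted p of 1.00 in edgeR). Ribosomal proteins of the cerebellum had a median effect of 0.11 at 22 months and 0.01 at 18 months, and those of the hippocampus -0.09 and 0.04. Myelin genes of the hippocampus had medians of -0.26 and 0.20, and choroid plexus genes 0.55 and 1.75. Choroid plexus transcripts varied widely between dissections, with Ttr from 4.52 to 4609 CPM (median 36.2 CPM) in the 23 hippocampi of the first experiment that were not of 22 months. How far single libraries set the choroid plexus median at 18 months was not tested.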

How the data were processed

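Libraries were made from RNeasy-extracted RNA with Smart-Seq2 and Nextera XT, an unstranded protocol, per the labels' protocols. The submitters' processing notes name Trim Galore 0.3.7, STAR 2.5.3a, GRCm38 and DESeq2. The counting tool and annotation are not given in the sources used here. The values are the authors' deposited raw counts of 35486 gene symbols, of which 6251 are at 0 in every library. Symbols were matched to reference gene names for 35047, and locations come from GENCODE M21 (GRCm38). Without molecular identifiers, PCR duplicates cannot be told apart from separate molecules. Antisense and overlapping genes cannot be separated without strand.

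From the counts, CPM (each library scaled to a total of 1e+06) and edgeR 4.0.16 tests (R 4.3.3) were computed. TMM factors, filterByExpr (minimum count 10, minimum total 15) and the quasi-likelihood test were used with 1 coefficient per group and Benjamini-Hochberg adjustment over all genes at 0.05. Each region fit held 29 libraries of 8 groups of the first experiment, and the difference between regions 87. Libraries of a group are separate mice. DESeq2 1.42.0 and limma-voom (limma 3.58.1), other scaling and filters, fits of fewer libraries and leaving out mice were the alternatives. The scripts were tested on simulated data.

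Named genes were to be the largest of those passing, and where fewer than 4 in a direction passed, those with the smallest p, no overlap and a mean of at least 5 CPM filled up to 4, clone names left out. In addition, 12 genes were followed whatever their values. The members and the 38 gene lists were chosen with earlier results of these data known. In each region 37 lists had at least 3 tested members. Between cerebellum and hippocampus the replicate number is the same mouse, per the labels. The correlation of its deviations from the group means was 0.0247 to 0.157 (median 0.0363). In no mouse did the cerebellum correlate best with the hippocampus of the same number, so the pairing rests on the labels.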

Additional observations from a re-analysis of the deposited data

How the results depend on the processing

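Of 59 alternatives to the counts of genes called, 53 gave 0 genes like the fits reported and 6 gave 1 to 3. DESeq2 called 1 gene in the hippocampus, 1 in the difference between regions and 1 in the difference between ages in the hippocampus, each time Slc16a8. For the cerebellum, fitting only the groups compared called 3 genes. For the difference between ages in the cerebellum, edgeR without a filter on low counts called 2 and leaving out 1 mouse in turn called 0 to 1. In a paired fit with the mouse as a replicate block, the difference between regions stayed at 0 genes, with 509 at an unadjusted p under 0.05. Leaving out each mouse in turn gave 0 genes in the hippocampus, the cerebellum and the difference between regions, with 146 to 542, 325 to 900 and 416 to 882 at an unadjusted p under 0.05. The median plasma effect of the cerebellar genes lower with age was -0.0277 with PBS mice 15 and 18 left out, against 0.00 with all mice. Of the log2 fold changes of single genes, 466 were the same and 34 had moved, all of them followed genes whose value crossed 0, and of the differences between regions 465 and 11. Of the list medians 594 were the same and 60 had moved. A median counted as moved when it shifted by at least the within-group spread (SD) of the list's median. A median counted as the same could still change sign, as that of cerebellar complement did, from 0.11 to -0.05 without PBS mouse 15. Intervals were widest among genes under 5 CPM, and changes smaller than their intervals were not detectable at this depth.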
